A study of Mus musculus with 9 samples.

Results

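Lactotroph-like cells are described here as cells in which the prolactin gene Prl took at least 10% of all transcripts (unique molecular identifiers, UMIs) and the growth hormone gene Gh took less than 50%. The rule was applied to libraries 4 to 6, counted in the order in which library codes first appear in the deposited table, and it returned 761 cells of 10113 in these libraries and of 29571 in the series. The cells were thus chosen by their measured shares of Prl and Gh, whose values are given as a description only. All other levels are in CPM, the share of a gene in the UMIs that remain once Gh, Prl and Pomc are set aside, so that the hormone transcripts do not set the scale.

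Lactotrophs are the prolactin cells of the anterior pituitary. They share the transcription factor POU1F1 with the growth hormone cells (somatotrophs) and the thyrotropin cells, secrete from dense-core granules packed with granins, are driven by estrogen through ESR1 and are held in check by dopamine from the hypothalamus through DRD2. Prolactin is known for its part in lactation and in the response to stress, and in humans its blood level rises during sleep.

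The study prepared single-cell suspensions from the brainstem, cortex and hypothalamus of male C57BL/6 mice (C57BL/6J in the paper) aged 9 to 11 weeks. The 3 sleep groups were normal sleep, 12 h of sleep deprivation, and recovery sleep after 12 h of deprivation. Brains were taken at lights off (Zeitgeber time 12), 3 mice were pooled for each of the 9 samples, tissue was digested with papain, debris was lowered with myelin removal beads, and libraries were made with 10x Genomics Chromium version 2 chemistry. All groups shared the strain, age range, housing and preparation, and none carried a transgene. The labels list no pituitary sample, and no source used here ties a library code to a region or sleep group, so the region and sleep group of libraries 4, 5 and 6 are not known here and no comparison by sleep group is made.

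The 9 libraries held 2575 to 3916 cells and 1522766 to 5488950 UMIs. With 1 pool per library there is no replicate of a condition, so intervals are exact 95% intervals that cover counting error only, and a gene is called only where it passes 2-fold in the same direction in each of libraries 4, 5 and 6. Each pair of libraries shared 5 to 25 cell barcodes. No barcode was shared between lactotroph-like cells of different libraries, although 28 of the 761 cells carried a barcode that also occurs in some other library. The doublet caller Scrublet marked 0, 6 and 0 cells of libraries 4, 5 and 6 and none of the lactotroph-like cells, a number too low for it to have worked, so all cells were kept.

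Lactotroph-like cells were found in each of the 3 libraries and had their highest share in library 6. Of the 3491 cells in library 4, 164 were lactotroph-like (4.70%, exact Clopper-Pearson interval 4.02 to 5.45%). Of the 2706 cells in library 5, 107 were (3.95%, 3.25 to 4.76%). Of the 3916 cells in library 6, 490 were (12.5%, 11.5 to 13.6%), an interval that overlaps neither of the others. Among cells of 1000 UMIs or more the share was 3.05% in library 5 and 7.75% in library 6. Set against the cells with Gh at 50% or more of UMIs and Prl under 10% (Gh-high cells), there were 17.8 lactotroph-like cells per 100 Gh-high cells in library 4, 16.2 in library 5 and 31.1 in library 6. How much pituitary tissue entered each suspension is not given in the sources used here, so a different amount of tissue and a different number of lactotrophs in the gland cannot be told apart. In the other 6 libraries no cell passed the rule, and Prl never took more than 0.565% of a cell's UMIs.

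Prl, on which the cells were chosen, took a median of 21.0% of UMIs in the lactotroph-like cells of library 4, 24.2% in library 5 and 23.7% in library 6, and at most 59.7%, 60.5% and 61.8%. In the Gh-high cells the median was 0% in libraries 4 and 5 and 0.0651% in library 6. Between 5 and 10% there were 22, 7 and 67 cells, against 73, 40 and 188 cells between 10 and 20%. Just outside the threshold, from 9 to 10%, stood 7, 0 and 16 cells, and just inside it, from 10 to 11%, stood 5, 5 and 25. In library 4 the cells outside had 3488 CPM of Chgb and 830 CPM of Pou1f1 and the cells inside 2879 and 576 CPM, and in library 6 they had 3916 and 1054 CPM outside and 3596 and 654 CPM inside. The lactotroph-like cells carried 91.7%, 94.8% and 90.9% of all Prl UMIs of libraries 4, 5 and 6.

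Cells with both hormones at a high level were few. No cell with Prl at 10% or more had Gh at 50% or more, so the upper limit on Gh removed none. The median Gh share of the lactotroph-like cells was 0.710%, 0.578% and 1.19% in libraries 4, 5 and 6. Similar shares were found in cells with Pomc at 10% or more (Pomc-high cells), which had 0.641%, 0.719% and 0.998%. The remaining cells with at least 5 UMIs of microglia genes had 0.828%, 0.623% and 1.87%, the last above the 1.19% of lactotroph-like cells. Gh at 5% or more was found in 0, 1 and 7 lactotroph-like cells, and Pomc at 5% or more in 0, 0 and 3. The plot of Prl against Gh shows them above the threshold line at low Gh, with a sparse band of cells beneath the line and a few at high Gh in library 6.

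**Figure D1:**
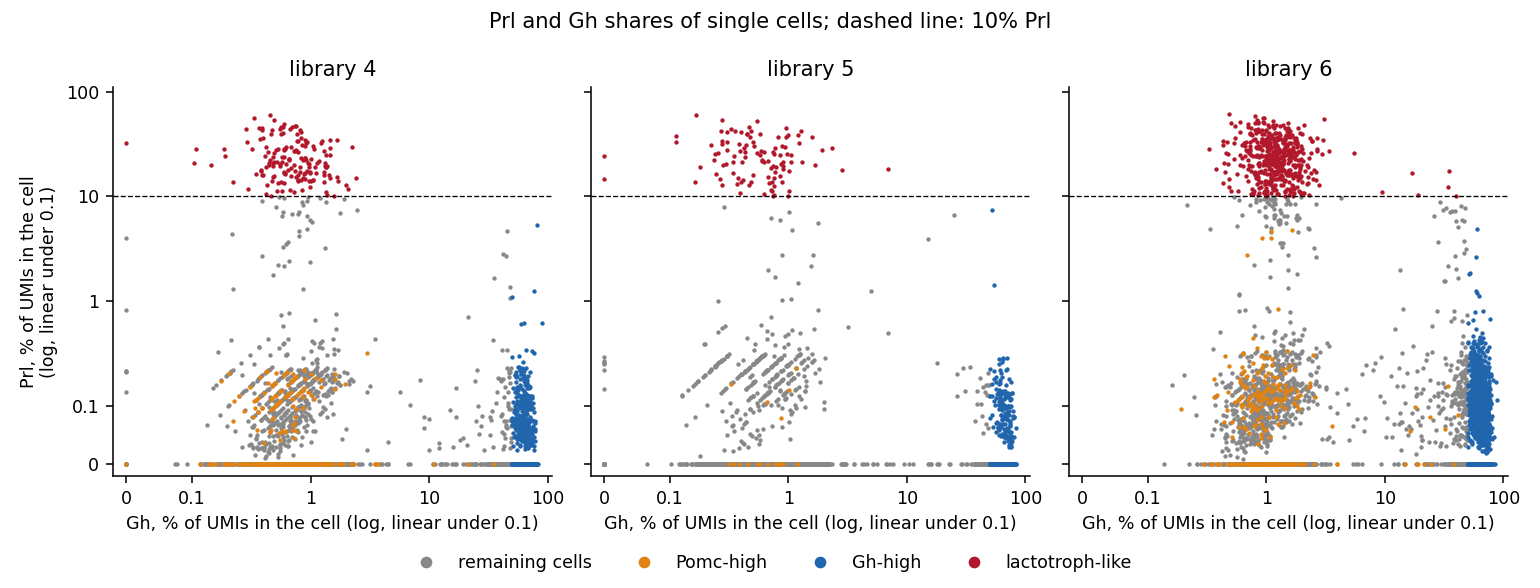
Share of UMIs from Prl (vertical axis, percent) against the share from Gh (horizontal axis, percent) in each cell of libraries 4, 5 and 6, on log axes that turn linear under 0.1%; the dashed line is the 10% Prl threshold and colours give the 4 classes. The 164, 107 and 490 lactotroph-like cells lie mostly near 1% Gh, apart from the Gh-high cells at 50% and above, and library 6 holds 7 that reach 5% Gh.

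The Prl promoter carries the letters to which the POU1F1 family binds, which is why it is shown beside the Pou1f1 values that follow. RefSeq's 250 bases before the Prl start site lie on the plus strand of mouse build GRCm38.p6 at chr13:27057320-27057569, upstream of the first exon. Capitals mark TATNCAT, or its reverse complement ATGNATA, in which N is any base.
Prl promoter: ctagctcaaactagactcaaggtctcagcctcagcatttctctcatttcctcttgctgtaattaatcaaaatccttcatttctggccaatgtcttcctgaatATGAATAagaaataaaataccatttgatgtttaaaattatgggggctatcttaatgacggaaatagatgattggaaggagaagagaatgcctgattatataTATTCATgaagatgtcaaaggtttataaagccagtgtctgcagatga
There were 2 matches, which begin 148 and 47 bases before the start site. Searched on both strands over the same length, 7.92% of 32851 promoters in the table held at least 1 match and 1.26% held 2 or more. A match is a description of the letters and not a measured binding site.

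Most lactotroph markers were counted, while Drd2 could not be judged and Maob was low. Pou1f1 stood at 651 CPM (511 to 818) in the lactotroph-like cells of library 4, 678 CPM (480 to 930) in library 5 and 759 CPM (669 to 857) in library 6. In Gh-high cells it stood at 459, 370 and 500 CPM, in Pomc-high cells at 4.05, 0 and 22.6 CPM, and in the remaining cells, which fall in none of these classes, at 37.5, 15.5 and 98.1 CPM. Pou1f1 was thus high in both classes that are known to depend on it and low in the others. The remaining cells also include cells just under the Prl and Gh limits. Esr1, the estrogen receptor that raises Prl transcription, had 185, 143 and 126 CPM in the lactotroph-like cells against 117, 93.5 and 44.0 CPM in Gh-high cells. Agtr1a, the angiotensin receptor of lactotrophs, had 61.6, 35.7 and 61.5 CPM against 0, 0 and 3.67 CPM. Angpt1, a secreted vascular growth factor, had 114, 89.2 and 82.1 CPM against 0, 3.74 and 0 CPM. The summed level of the 8 lactotroph markers other than Prl was 1267, 1106 and 1161 CPM in the lactotroph-like cells of libraries 4, 5 and 6. Gh-high cells had 606, 482 and 562 CPM. Of 3 tested against them, 1 was at least 2-fold higher in all 3 libraries (Edil3, all genes 2.27%) and 2 passed in neither direction. On totals of all genes, hormones included, 2 of 2 were higher, where 37.9% of all genes tested were. Drd2, the dopamine receptor by which lactotrophs are defined, gave 1 UMI in all lactotroph-like cells. Only 3 Drd2 UMIs were counted in all 29571 cells of the series, so the table holds too few to say whether these cells express it. Maob, a monoamine oxidase taken as a marker, had only 8.80, 0 and 8.79 CPM, below the 50.2, 44.7 and 80.5 CPM of the remaining cells.

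Several defining markers of the other pituitary cell types were at or near 0, while Pcsk2 was not and Lhb was not in libraries 4 and 6. Ghrhr, the receptor by which growth hormone releasing hormone drives somatotrophs, had 0, 0 and 3 UMIs in the lactotroph-like cells of libraries 4, 5 and 6 against 136, 69 and 161 UMIs in Gh-high cells. Tbx19 and Pax7, the factors that define corticotrophs and melanotrophs, and Gnrhr and Nr5a1, which mark gonadotrophs, had no UMI in any lactotroph-like cell, and 3 UMIs, the limit that a count of 0 allows, correspond to 26.4, 53.5 and 8.79 CPM. The 8 corticotroph and melanotroph markers other than Pomc nevertheless summed to 150, 125 and 176 CPM, against 92.6, 59.8 and 135 CPM in Gh-high cells and 2900, 863 and 4775 CPM in Pomc-high cells. Most of this was Pcsk2, a prohormone convertase, with 123, 125 and 132 CPM against 46.3, 33.7 and 73.4 CPM in Gh-high cells. The somatotroph markers summed to 61.6, 53.5 and 61.5 CPM, against 405, 351 and 317 CPM in Gh-high cells. The gonadotroph markers summed to 167, 35.7 and 240 CPM, led by Lhb in libraries 4 and 6 and without it in library 5. Gh-high cells had 230, 116 and 273 CPM and the remaining cells 9610, 4234 and 10001 CPM. Microglia markers summed to 273, 589 and 199 CPM, against 300.0, 464 and 144 CPM in Gh-high cells, and 2, 1 and 4 lactotroph-like cells reached 5 UMIs of them. Leaving out the lactotroph-like cells that reached 5 microglia UMIs changed none of 143 calls on named and list genes, and subtracting free RNA ended 8 of them.

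**Figure D2:**
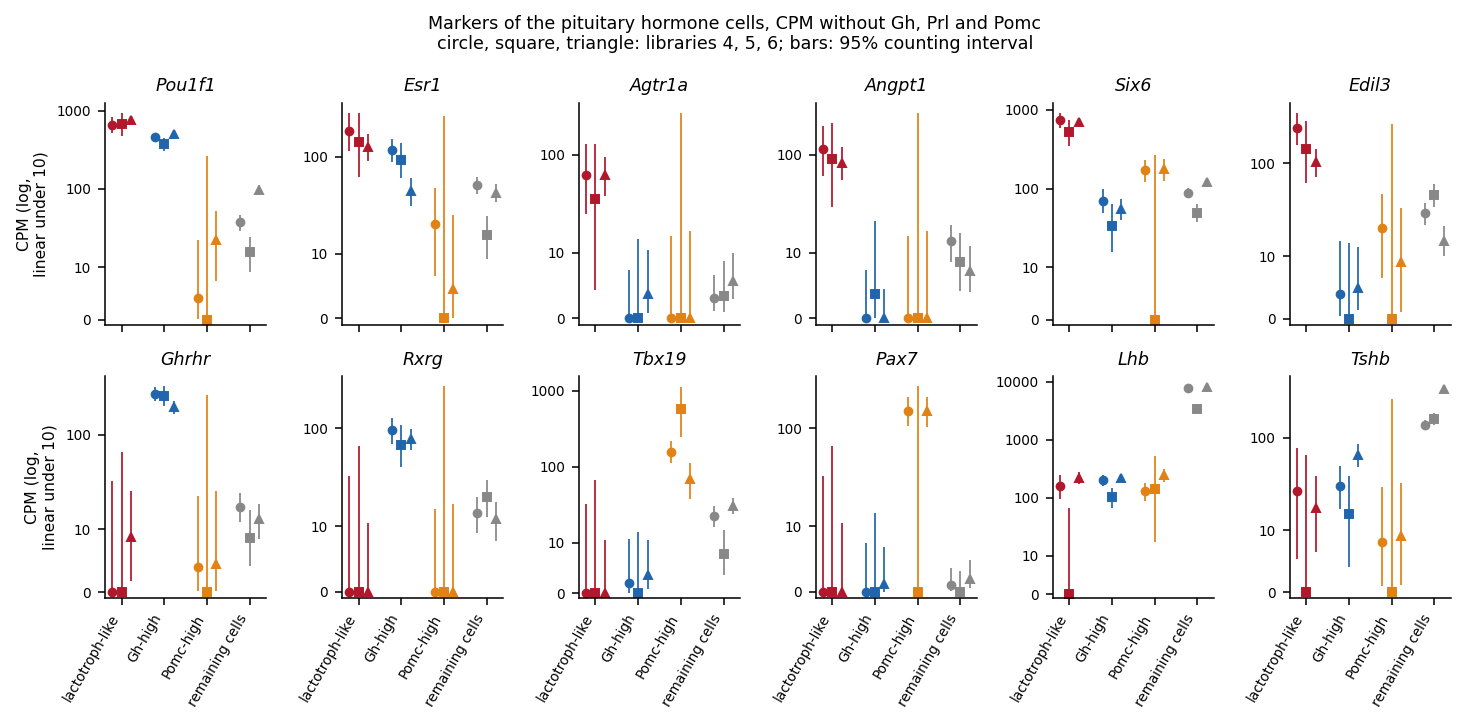
CPM of 12 marker genes (vertical axes, log and linear under 10 CPM) in the 4 cell classes; circles, squares and triangles are libraries 4, 5 and 6 and bars are 95% counting intervals. Pou1f1 and Esr1 are counted in lactotroph-like and Gh-high cells. Six6 reaches 517 CPM or more in lactotroph-like cells of each library, and Rxrg, Tbx19 and Pax7 are at 0 there.

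Against Gh-high cells, which are their closest relatives in lineage, 55 of 2421 genes tested were at least 2-fold higher in the lactotroph-like cells of all 3 libraries (2.27%) and 69 were at least 2-fold lower (2.85%). The 2421 genes had a mean of at least 50 CPM over both classes in each library, 10 CPM was added to each level before taking ratios, and the median log2 ratio over them was 0.02. The comparison rested on 919, 660 and 1574 Gh-high cells. All genes share the cells that Prl and Gh chose, so these calls describe the profile and are no test. On totals of all genes, which in Gh-high cells are mostly Gh, the median log2 ratio over the same genes moved up by 0.92 and the calls became 466 higher (37.9% of the 1230 genes then tested) and 5 lower (0.407%; Kcnk2, Bmyc, Dapl1, Usp2 and Alcam), so the directions below are relative to the other genes outside the hormones.

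Granule proteins stood out among the higher genes. Of 14 tested genes for granule proteins and prohormone processing, 4 were higher (Chgb, Scg2, Scg3 and Scg5), 1 was lower (Ptprn) and 9 passed in neither direction, with a median log2 ratio of 0.99. Over all genes tested, 2.27% were higher and 2.85% lower, with a median of 0.02. With all genes in the totals 9 of 13 were higher, where 37.9% of all genes tested were, and none was lower. Chgb encodes chromogranin B, a granin of dense-core granules. It reached 6204 CPM (5755 to 6680) in library 4, 6189 CPM (5555 to 6875) in library 5 and 6046 CPM (5788 to 6313) in library 6, against 590, 452 and 795 CPM in Gh-high cells. The 3 libraries differed little from each other and all lay 7.53 to 13.4-fold above Gh-high cells. Scg2, the precursor of secretoneurin, had 1751, 2461 and 1503 CPM against 371, 262 and 379 CPM. Scg5, the chaperone of the prohormone convertase PCSK2, had 2033, 2782 and 1685 CPM against 451, 546 and 393 CPM. Ptprn, a phosphatase-like protein of the granule membrane, went the other way, with 229, 89.2 and 135 CPM against 501, 217 and 429 CPM. Chga, the sister granin, had 220, 196 and 226 CPM in lactotroph-like cells, above the 109, 120 and 127 CPM of Gh-high cells, against 837, 216 and 1058 CPM in Pomc-high cells, and under the 968, 842 and 759 CPM of the remaining cells.

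Because depth differed between classes, Chgb was also counted after each cell had been thinned to 200 UMIs outside the hormones. A Chgb UMI was then seen in 68.3%, 65.1% and 66.5% of lactotroph-like cells. The Gh-high cells gave 10.8%, 6.87% and 12.6%, and the 153, 147 and 32 remaining cells with microglia markers, which should lack the gene, gave 1.31%, 1.36% and 3.12%, the last resting on 1 cell. Before thinning the lactotroph-like cells gave 92.1%, 91.6% and 95.1%. Thinning left out 0, 1 and 0 lactotroph-like and 24, 78 and 29 Gh-high cells, and the median depths outside the hormones had been 648, 513 and 654.5 UMIs in lactotroph-like cells and 501, 351.5 and 443.5 UMIs in Gh-high cells.

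Transcription factors of the pituitary lineage differed in some members. Of 7 tested, 2 were higher than in Gh-high cells (Six6 among them, all genes 2.27%), none was lower and 5 passed in neither direction. With all genes in the totals 4 of 5 were higher beside 37.9% of all genes. Six6, a homeobox factor of the pituitary, hypothalamus and eye, had 739, 517 and 700 CPM against 70.5, 33.7 and 55.0 CPM, which is 9.31 to 12.1-fold. Pou1f1, at 1.41, 1.81 and 1.51-fold, did not pass 2-fold in any library.

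Other genes with the greatest excess over Gh-high cells encode matrix and surface proteins. Hmcn1, an extracellular matrix protein with immunoglobulin domains, had 141, 125 and 190.5 CPM against 4.03, 3.74 and 6.11 CPM. Hepacam2, an adhesion protein of the immunoglobulin family, had 238, 250 and 155 CPM against 8.05, 3.74 and 7.34 CPM. Edil3, an integrin-binding matrix protein on the list of lactotroph markers, had 238, 143 and 103 CPM against 4.03, 0 and 4.89 CPM. These 3 genes were nearly absent from Gh-high cells in each library. Lgals1 (galectin 1), Phlda1 (a pleckstrin homology-like protein), Ly6h (a membrane-anchored protein of the Ly6 family) and Gm2694 were also among the 10 genes with the greatest excess. Ly6h stood at 1003, 963 and 985 CPM against 135, 179 and 100.3 CPM, but it reached 1606, 2374 and 1130 CPM in Pomc-high cells.

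Some receptors were among the genes lower than in Gh-high cells. Of 6 tested receptors, 3 were lower (Ghrhr, Prlr and Nr3c1) and none was higher, beside 2.85% and 2.27% of all genes tested. These 3 passed the filter on level mainly through the Gh-high cells, so that the count says little beyond their levels. With all genes in the totals 3 receptors were tested, of which 2 were higher (all genes, 37.9%) and none was lower. Nr3c1 encodes the glucocorticoid receptor. It gave 0 UMIs in the lactotroph-like cells of libraries 4 and 5 and 2 UMIs in library 6, against 82, 40 and 108 UMIs in Gh-high cells. The counting interval of its ratio to Gh-high cells reached up to 0.201 in library 4 and 0.461 in library 5. In library 6 the ratio was between 0.00531 and 0.164. Nr3c1 stood at 165, 150 and 132 CPM in Gh-high cells and 68.8, 144 and 63.3 CPM in Pomc-high cells. The remaining cells had 97.3, 68.7 and 86.2 CPM, so that every other class held Nr3c1. Prlr, the receptor for prolactin itself, had 35.2, 53.5 and 35.2 CPM in lactotroph-like cells against 191, 131 and 126 CPM in Gh-high cells, and close to the 46.1, 28.3 and 45.2 CPM of the remaining cells.

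Some genes known to rise under glucocorticoids, listed with the metallothioneins, were lower as well. Of 8 tested against Gh-high cells, 5 were lower (Fkbp5, Mt1, Mt2, Klf9 and Nfkbia), beside 2.85% of all genes tested. None was higher and 3 passed in neither direction. Some of these genes, such as Fkbp5, passed the filter on level through the Gh-high cells, which leans the count to lower calls. The median log2 ratio was -1.45 against 0.02 over all genes tested. On totals of all genes none of the 4 genes then tested was called, while the median of -0.45 lay 1.55 log2 units below that of all genes. Fkbp5, a co-chaperone of the glucocorticoid receptor, had 26.4, 35.7 and 35.2 CPM against 284, 187 and 256 CPM. Mt1, a metal-binding metallothionein, had 704, 1195 and 1389 CPM against 1816, 6529 and 3879 CPM in Gh-high cells, 3887, 10789 and 4648 CPM in Pomc-high cells and 4098, 6882 and 6521 CPM in the remaining cells. Against the remaining cells 4 of 7 were lower (Fkbp5, Mt1, Mt2 and Klf9, all genes 6.43%). Against Pomc-high cells 2 of 5 were (Mt1 and Mt2, all genes 1.89%), and the other 3 passed in neither direction in each case.

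The other genes furthest below Gh-high cells include matrix, channel and transport proteins. Cyr61, a matrix-associated signalling protein, gave no UMI in any lactotroph-like cell against 72, 127 and 188 UMIs in Gh-high cells. The counting intervals of its ratio reached up to 0.230, 0.141 and 0.0475 in libraries 4, 5 and 6. Dapl1, a small protein related to a cell death gene, had 52.8, 17.8 and 79.1 CPM against 886, 538 and 962 CPM. Kcnk2, a background potassium channel, had 88.0, 89.2 and 87.9 CPM against 566, 479 and 551 CPM, and Alcam, an adhesion protein, 17.6, 17.8 and 29.3 CPM against 403, 374 and 273 CPM. Pappa2 (a protease of insulin-like growth factor binding proteins), Ccl17 (a chemokine), Slc39a14 (a zinc transporter) and Galnt16 (a glycosyltransferase) were at 0 UMIs in libraries 4 and 5 and at 3 or 4 UMIs in library 6. Of 5 ion channel genes tested, 2 were lower (Kcnk2 and Kcnmb4, a subunit of the large-conductance potassium channel), where 2.85% of all genes were. On totals of all genes 1 of 3 was higher and 1 was lower, where 37.9% and 0.407% of all genes were.

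**Figure D3:**
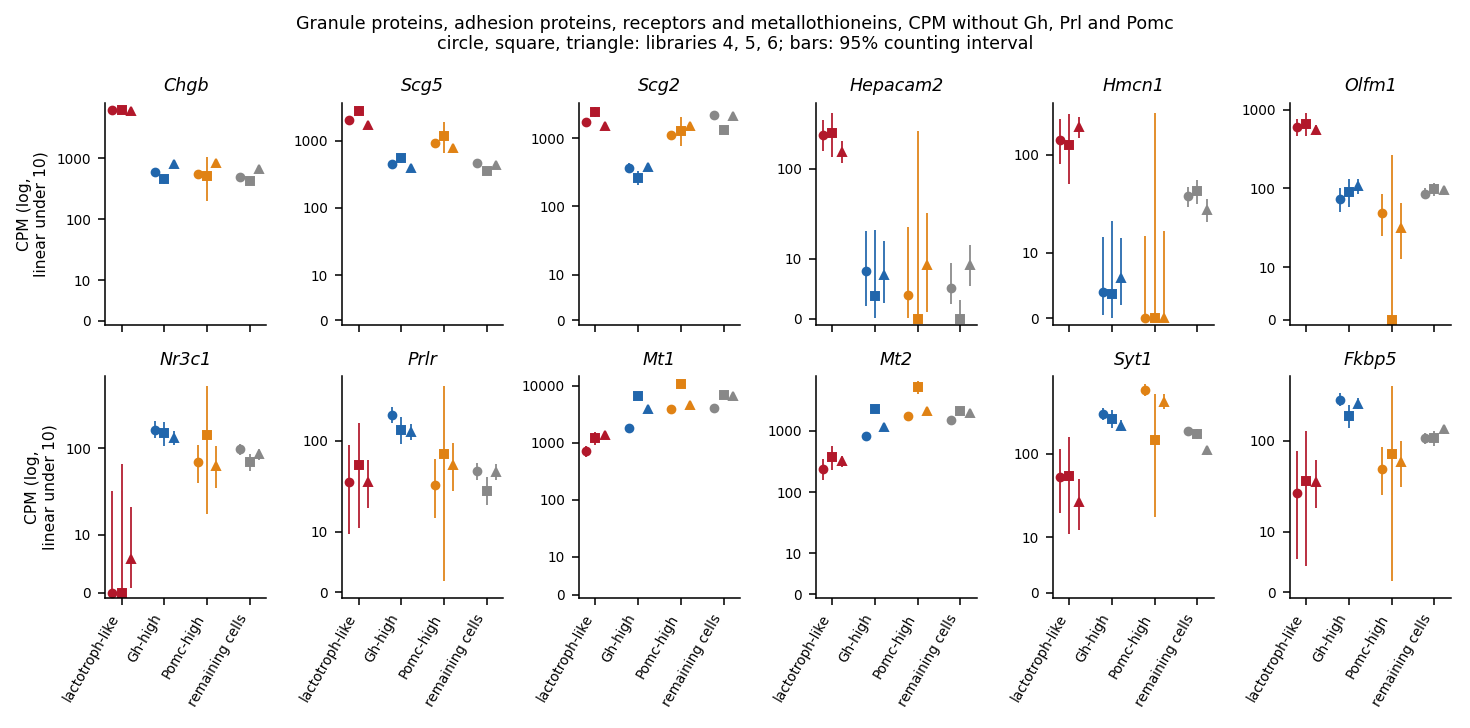
CPM of 12 genes for granule proteins, adhesion and matrix proteins, receptors and metallothioneins (vertical axes, log and linear under 10 CPM) in the 4 cell classes; circles, squares and triangles are libraries 4, 5 and 6 and bars are 95% counting intervals. Chgb is at 6046 CPM or more in lactotroph-like cells and at 832 CPM or less elsewhere, while Nr3c1, Mt1, Mt2 and Syt1 are lower in lactotroph-like cells than in Gh-high cells in every library.

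Against Pomc-high cells, 42 of 2006 genes were at least 2-fold higher in the lactotroph-like cells of all 3 libraries (2.09%) and 38 were lower (1.89%), with a median log2 ratio of 0.05. Library 5 held only 18 Pomc-high cells with 13903 UMIs outside the hormones, against 372 and 309 cells in libraries 4 and 6. They also differed in kind, since Pcsk2 and Pax7, which mark melanotrophs, gave 515 and 37 UMIs in library 4, 877 and 33 in library 6 and none in library 5, whereas Tbx19 gave 39, 8 and 15. Without library 5 the counts were 70 higher and 86 lower, and all 42 and 38 genes were among them. Counted on totals of all genes, 25 of 1484 genes were higher and 25 were lower (1.68% each).

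The genes furthest above Pomc-high cells were led by Pou1f1, Hmcn1, Olfm1, Thrb and Hepacam2. Olfm1, a secreted olfactomedin, had 598, 660 and 554 CPM against 48.5, 0 and 31.7 CPM. Thrb, a thyroid hormone receptor, had 114, 125 and 120 CPM against 0, 0 and 4.52 CPM, and Esr1 was the other tested receptor called higher, 2 of 4 in all. In library 5, where 3 UMIs in the 18 Pomc-high cells correspond to 216 CPM, the values of Hmcn1, Thrb, Hepacam2, Esr1, Edil3, Asb4 and Eno3 rested on 7 to 14 UMIs against 0. Their counting intervals of the ratio began at 0.357 to 0.823, so that for these 7 genes the difference in library 5 was within counting error. The pass there rests on a count of 0 in the 18 Pomc-high cells. Pou1f1, Olfm1 and Chgb had intervals from 2.37 or more. Chgb (7.19 to 12.1-fold), Edil3, Asb4 (an ankyrin repeat protein with a SOCS box) and Eno3 (beta-enolase) complete these 10 genes. Furthest below were Cidea, a lipid droplet protein, with 17.6, 35.7 and 0 CPM against 396, 1151 and 470 CPM, and Nmb, the peptide neuromedin B, with 0, 0 and 11.7 CPM against 174, 1582 and 226 CPM. AW551984, Obsl1 (a cytoskeletal adaptor), Mt2, C2cd4b, Srxn1 (sulfiredoxin), Ccdc109b (a subunit of the mitochondrial calcium uniporter), Usp29 (a ubiquitin protease) and Cd9 (a tetraspanin) followed. Of 14 granule genes, 2 were higher (Chgb and Scg5, all genes 2.09%) and 2 were lower (Peg3 and Resp18, all genes 1.89%).

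Against the remaining cells, a mixture that includes other pituitary cells, glia and vascular cells, 70 of 2425 genes were higher (2.89%) and 156 were lower (6.43%), with a median log2 ratio of 0.09. On totals of all genes that median moved by -0.32 and the calls became 30 higher (1.47% of 2039 genes) and 192 lower (9.42%). The highest were Chgb, Hepacam2, Pou1f1, Eno3, Gpx3, Six6, Olfm1, Asb4, Dbpht2 and Igsf1. Gpx3, a secreted glutathione peroxidase, had 933, 1302 and 985 CPM against 154, 172 and 159 CPM, and Igsf1, a membrane protein of the pituitary whose loss in humans causes central hypothyroidism, had 229, 268 and 226 CPM against 46.1, 51.5 and 31.9 CPM. Furthest below were Cga and Lhb, subunits of the glycoprotein hormones, Tgfbr3l (a gonadotroph receptor), Igfbp5, Mia, Cck, Cyp2f2 and the ependymal genes Ccdc153, Rarres2 and Tmem212. Of 7 tested peptide and hormone subunit genes, 6 were lower (Cga, Tshb, Lhb, Fshb, Cck and Avp), of 39 in the table, and most passed the filter on level through the remaining cells, so that the count says little beyond their levels. Cga was nonetheless found at 537, 125 and 548 CPM in lactotroph-like cells, against 785, 247 and 816 CPM in Gh-high cells, while the remaining cells had 24971, 10616 and 24361 CPM. After thinning, a Cga UMI was seen in 15.2%, 0.943% and 9.18% of lactotroph-like cells and in 11.1%, 1.36% and 12.5% of the remaining cells with microglia markers. The intervals overlapped in each library (10.1 to 21.7% and 6.61 to 17.2% in library 4), so Cga in lactotroph-like cells is not read as expression.

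Most genes for protein export passed in neither direction. The calls made on totals without the hormones were to the higher side and were most frequent against the remaining cells. Of 21 tested genes for translocation into the endoplasmic reticulum (ER) and signal peptide removal, 6 were higher than in the remaining cells (Sec61b, Sec61g, Ssr2, Ssr4, Spcs1 and Ostc), none was lower and 15 passed in neither direction, with a median log2 ratio of 1.01 against 0.09 over all genes. Against Pomc-high cells 3 of 21 were higher (Ssr3, Rpn2 and Ostc) and none was lower, with a median of 0.77 against 0.05 over all genes. Against Gh-high cells none of 23 was called in either direction and the median was 0.26. Among all genes tested, 2.89% were higher than in the remaining cells, 2.09% than in Pomc-high cells and 2.27% than in Gh-high cells. On totals of all genes the calls became 2 of 20 against the remaining cells (1.47% over all genes tested). They became 3 of 21 against Pomc-high cells (1.68%) and 13 of 21 against Gh-high cells (37.9%), all of them higher. Sec61b, a subunit of the ER translocation channel, had 1082, 1124 and 1606 CPM in lactotroph-like cells, 959, 1167 and 1185 CPM in Gh-high cells and 430, 309 and 588 CPM in the remaining cells. Ssr4, of the translocon-associated complex, had 766, 1355 and 932 CPM against 499, 501 and 630 CPM in Gh-high cells and 300, 221 and 345 CPM in the remaining cells. Of 20 ER chaperone and unfolded protein response genes, 4 were higher than in the remaining cells (Pdia3, Sdf2l1, Dnajb9 and Manf) and 16 passed in neither direction, 2 of 18 were higher than in Pomc-high cells (Sdf2l1 and Manf), and none of 20 was called against Gh-high cells. With all genes in the totals, 5 of 17 were higher than in Gh-high cells, a smaller share than the 37.9% of all genes, none of 17 than in Pomc-high cells (1.68% of all genes) and 2 of 17 than in the remaining cells (1.47%). Manf, a stress-induced secreted ER protein, had 757, 874 and 821 CPM against 459, 632 and 533 CPM in Gh-high cells and 208, 190 and 251 CPM in the remaining cells.

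Few genes of the exocytosis machinery were called. Of 15 tested against Gh-high cells, 1 was higher, 1 was lower and 13 passed in neither direction. Rab3c, a small GTPase of secretory vesicles, had 158, 89.2 and 164 CPM against 46.3, 22.4 and 35.5 CPM. Syt1, the calcium sensor of fast release, had 52.8, 53.5 and 26.4 CPM against 300.0, 262 and 216 CPM, and was also lower than in Pomc-high and remaining cells. Syt7, a calcium sensor of slower release, was higher than in Pomc-high and remaining cells, at 123, 107 and 108 CPM against 42.1, 36.9 and 41.4 CPM in the latter. Of 11 signalling genes tested against Gh-high cells, 1 was higher, and on totals of all genes 4 of 6 were, beside 37.9% of all genes. Against the remaining cells 2 of 11 were higher (Crem and Pde10a, all genes 2.89%), and none of 10 on totals of all genes (1.47%). The gene called against Gh-high cells was Rgs2, a regulator of G protein signalling, with 202, 250 and 185 CPM against 74.5, 41.1 and 41.6 CPM. Clock genes gave 1 call of 5 (Rora, lower), the cell cycle list gave Stmn1 alone of 2 genes tested (higher), and the lipid list gave Cidea alone of 4 (lower), all against Gh-high cells. Over all genes tested there, 2.27% were higher and 2.85% lower. On totals of all genes 1 of 1 cell cycle gene was higher, beside 37.9% of all genes. None of 1 clock gene and 2 lipid genes was then called.

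**Figure D4:**
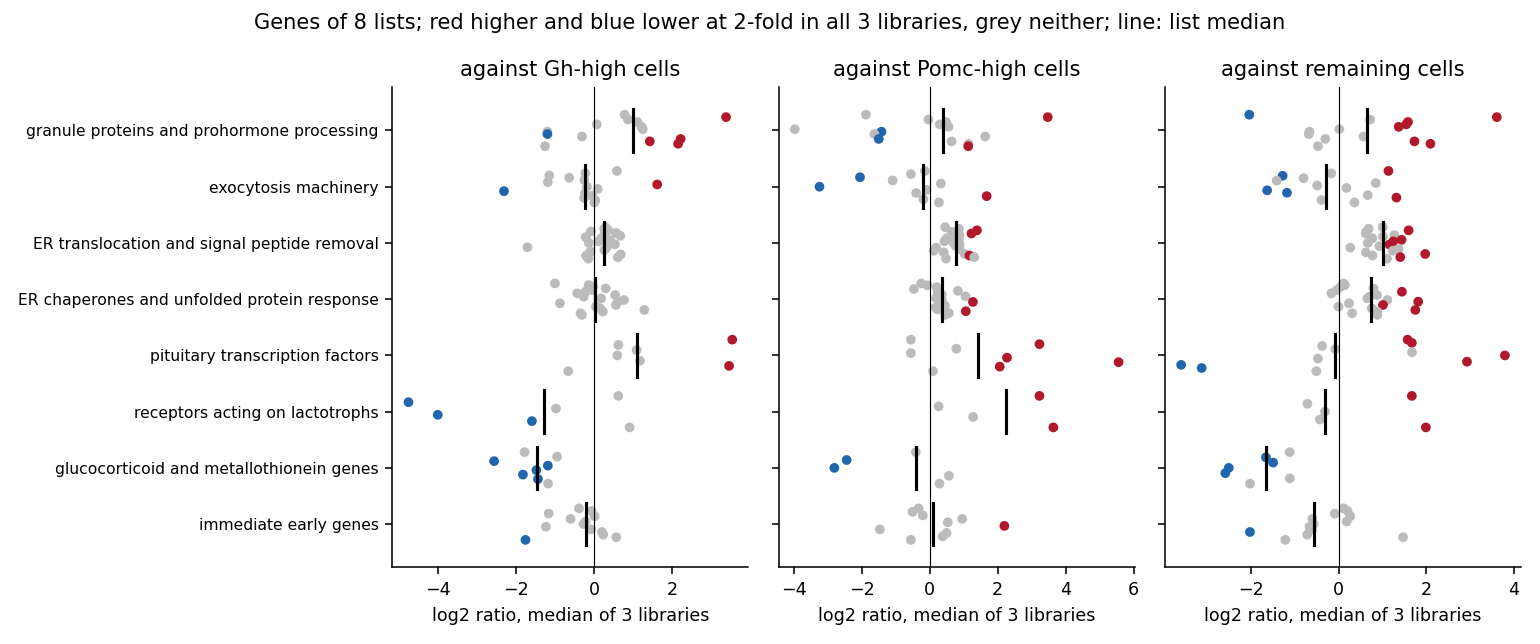
Log2 ratio of lactotroph-like cells to each other class (horizontal axes, median of libraries 4, 5 and 6) for the tested genes of 8 lists; each point is a gene, red or blue where it passed 2-fold higher or lower in all 3 libraries, and the black line is the list's median. The ER translocation list has a median of 0.26 against Gh-high cells and 1.01 against the remaining cells, and the glucocorticoid and metallothionein list lies at -1.45 and -1.67.

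Against all 3 other classes at once, 12 of 1814 genes tested in each comparison were higher in every library (0.662%) and 4 were lower (0.221%). In library 5 the part of this against Pomc-high cells rested on 7 to 14 UMIs against 0 for Hmcn1, Hepacam2, Edil3, Asb4, Eno3 and Tle4, which is within counting error. The 12 were Chgb, Scg5, Hmcn1, Hepacam2, Edil3, Olfm1, Six6, Asb4, Eno3, Mest, Stmn1 and Tle4. Mest, an imprinted gene, had 563, 642 and 440 CPM against at most 93 CPM in Gh-high cells, 214 CPM in Pomc-high cells and 140.4 CPM in the remaining cells. Stmn1, a regulator of microtubules, had 1408, 1052 and 1073 CPM against 300.0, 482 and 231 CPM in Gh-high cells, and Tle4, a Groucho corepressor, 246, 250 and 226 CPM against 90.6, 86.0 and 85.6 CPM. The 4 lower genes were Mt1, Mt2, Syt1 and Ifitm2, an interferon-induced membrane protein with 88.0, 89.2 and 61.5 CPM against 203, 239 and 289 CPM in Gh-high cells. With all genes in the totals none of the 4 lower genes was called against all classes, and 7 of the 12 higher genes were. Of the 12 higher genes, 10 had a promoter among those counted, which leave out chr18. Of these 10, 1 (Eno3) held the TATNCAT letters, against 9.16% of the 27025 genes counted.

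Split at each library's median Prl share, which is a description since Prl chose the cells, the cells above the median had 7962, 7070 and 7458 CPM of Chgb and the cells below it 4511, 5478 and 4884 CPM. The difference went the same way in each library and stayed under 2-fold. Of 2053 genes none passed 2-fold upward in all 3 libraries and 1 did downward (0.0487%), Klf6, a zinc finger factor, with 17.9, 0 and 19.5 CPM above and 121, 161 and 85.5 CPM below the median. Pou1f1 had 592, 679 and 701 CPM above and 709, 677 and 807 CPM below the median.

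Between libraries, lactotroph-like cells differed in few genes. A gene was called here where the 95% counting interval of its ratio lay wholly past 2-fold, an interval that leaves out how cells of a library differ. Library 5 against library 4 gave 10 higher (0.349%) and 3 lower (0.105%) of 2867 genes, library 6 against library 4 gave 0 higher (0%) and 2 lower (0.0716%) of 2792, and library 6 against library 5 gave 3 higher (0.107%) and 16 lower (0.572%) of 2795. In all, 26 genes were called in at least 1 pair, of which 10 were also among the 51 genes called in Gh-high cells. The remaining cells had 156 called genes, and 10 of the 26 were among them. For libraries 4 and 5, 4 and 6, and 5 and 6, Gh-high cells had 29 of 3360, 10 of 3264 and 31 of 3167 genes called. The remaining cells had 32 of 3401, 50 of 3228 and 138 of 3322, so more genes were called there in all. Whether the overlaps exceed what lists of such length would share was not tested. In the lactotroph-like cells most calls set library 5 apart from the others. The sleep group of no library is known here, so no direction by sleep can be given.

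Of the 26 genes, 4 were on the list of early response genes (Fos, Jun, Dusp1 and Nr4a1). Fos, a subunit of the AP-1 factor that neurons and endocrine cells induce on stimulation, had 581 CPM (449 to 739) in library 4, 2657 CPM (2248 to 3120) in library 5 and 721 CPM (634 to 817) in library 6. It was carried by 38 of 164, 50 of 107 and 118 of 490 cells, so the high level in library 5 did not come from a few cells. Gh-high cells held it at 576, 2337 and 1096 CPM and the remaining cells, highest in library 6, at 483, 696 and 1159 CPM. Jun, its partner, had 202, 713 and 314 CPM, with the highest level again in library 5. Of 16 early genes tested between libraries 4 and 5, 2 were called higher in library 5 (Fos and Jun), where 0.349% of all genes tested were. Nr4a1, an orphan nuclear receptor of the early response, was ordered otherwise, with 361 CPM (259 to 489) in library 4, 232 CPM (123 to 396) in library 5 and 82.1 CPM (54.5 to 119) in library 6. Dusp1, a phosphatase that ends MAP kinase signalling, had 220, 446 and 114 CPM.

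The 10 genes with the largest ratio in any pair were Hbb-bt, Hba-a2, Hbb-bs, Dap, Lhb, Hba-a1, Cd74, RP23-231J2.1, Txnip and B4galt3, and 1 cell carried much of the first of these. Hbb-bs, a beta globin, had 70.4, 2693 and 252 CPM, but 1 cell of library 5 carried 145 of the 151 UMIs, and 1 cell of library 6 carried 74 of 86. All 4 hemoglobin genes, in near-identical pairs among which counting can split reads, rested on these cells, which held 341 of 356 and 162 of 185 hemoglobin UMIs. Without them 22 genes were called between libraries. Cd74, the invariant chain of antigen presentation, had 17, 0 and 21 UMIs. The 17 UMIs of library 4 lay in 3 cells, 8 of them in 1 cell, and 1 cell of library 6 carried 18.

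Dap and Txnip, by contrast, were spread over cells. Dap, which encodes a death-associated protein of the autophagy pathway, had 229, 0 and 138 CPM, with UMIs in 23, 0 and 45 cells, whereas Gh-high cells held 171, 165 and 122 CPM. Txnip, an inhibitor of thioredoxin that responds to glucose, had 52.8, 410 and 176 CPM, with UMIs in 6, 20 and 55 cells. Lhb and Cga were lowest in library 5, at 0 and 125 CPM, where Gh-high cells also had their lowest values (101 and 247 CPM). B4galt3, a galactosyltransferase, rested on 3, 8 and 5 UMIs and RP23-231J2.1 on 0, 7 and 6. H3f3b, which encodes the histone H3.3, and Tulp4, a tubby-like protein, were called as well and are named after their values were seen. H3f3b had 1346, 3460 and 1492 CPM and Tulp4 had 229, 53.5 and 49.8 CPM. Chgb, Pou1f1 and Six6 were called between no pair of libraries, which held for most genes tested. In any pair and direction at most 0.572% of genes were called.

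**Figure D5:**
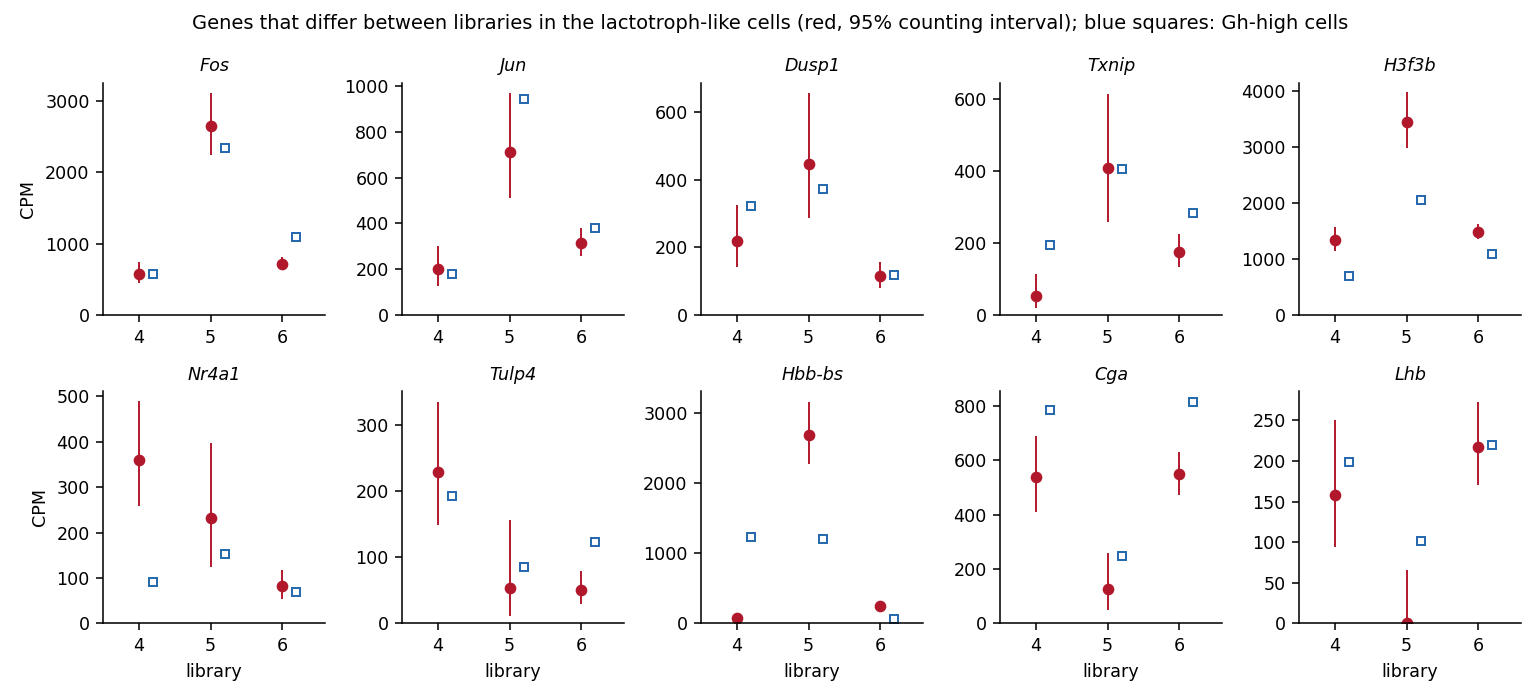
CPM (vertical axes, linear from 0) in libraries 4, 5 and 6 of 10 genes called between libraries in lactotroph-like cells; red points carry 95% counting intervals and open blue squares are Gh-high cells. Fos, Jun and H3f3b are highest in library 5 in both classes, though in the remaining cells, not drawn, library 6 is highest, whereas Hbb-bs in lactotroph-like cells of library 5 comes almost wholly from 1 cell.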

How the data were processed

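Cells came from 1 deposited table of 29571 cells. Its values are UMI counts that the authors deposited without normalization, and the submitters' processing notes name Cell Ranger 2.2.0, R 3.5.3 and the build GRCm38. Library codes in its column names match no label, so libraries were left unassigned and numbered in column order.

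Counts were summed per class and library with Python 3.11.15, numpy 2.4.6 and scipy 1.17.1, and divided by totals without Gh, Prl and Pomc. Ratios used 10 CPM added to each level and genes of at least 50 CPM (mean of both classes in each library). Intervals are exact Poisson, Clopper-Pearson or conditional binomial at 95%. Low-depth lactotroph-like cells (median 677 to 885.5 UMIs) limit genes under about 50 CPM. Scrublet ran in scanpy 1.11.5. The scripts were tested on simulated data. Promoters are from RefSeq (GRCm38.p6), and entries missing from that table, Gh among them, are named only.

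Named genes are the 10 called genes with the greatest smallest-of-3 ratio in each direction and comparison, the 10 with the largest ratio between libraries, and genes of 30 lists, of which some are not reported here. Members and lists were chosen with earlier results of these data known. Alternatives were other Prl and Gh limits, deeper cells, other totals, filters and pseudocounts, cell means, doublets, free RNA and each library left out.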

Additional observations from a re-analysis of the deposited data

Results flagged for a closer look

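Prl UMIs also appeared in libraries outside the 3 described, above the 3 counts that a count of 0 allows. There were 9 in library 1, 7 in library 2, 12 in library 3 and 6 in library 8, against 44309, 21836 and 132249 in libraries 4, 5 and 6. They lay in 8, 7, 11 and 4 cells. The part of pituitary cells, free RNA or barcode exchange in them was not tested.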

How the results depend on the processing

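No call on a named or list gene changed sign, but counts of genes and medians of lists moved with totals, filter and depth. On totals of all genes the median log2 ratio against Gh-high cells turned from -1.28 to 1.49 for receptors, from -0.50 to 0.55 for ion channels, from -0.22 to 0.93 for exocytosis and from -0.04 to 1.54 for signalling genes, while the median of all genes moved up by 0.92 and fewer genes of each list were tested. Relative to all genes tested, ion channels (-0.51 and -0.56) and exocytosis (-0.24 and -0.18) did not turn, whereas receptors (-1.30 and 0.38) and signalling genes (-0.06 and 0.43) did. Medians of early genes (-0.22 to 0.77), clock genes (-0.23 to 0.76), lipid genes (-0.71 to 0.76) and peptides (-0.31 to 1.80) also turned against Gh-high cells. Against Pomc-high cells lipid genes turned from 0.63 to -2.05. Against the remaining cells receptors turned from -0.32 to 0.33 and transcription factors from -0.08 to 0.29. On totals of all genes the counts were 466 higher and 5 lower against Gh-high cells, 25 and 25 against Pomc-high cells, and 30 higher against the remaining cells. With no filter on level they were 129 and 349, 168 and 112, and 106 and 910, with 41 genes between libraries. With a filter of 200 CPM they were 20 and 11, 16 and 8, and 28 and 25, with 14 between libraries. Cells of 1000 UMIs or more gave 27 higher against Pomc-high cells, and kept 5 of the 12 genes higher than all 3 classes. Without library 4 there were 69 higher against Pomc-high cells. Without library 5 there were 115 lower against Gh-high cells and 70 higher and 86 lower against Pomc-high cells. Without library 6 there were 87 and 117, 65 and 65, and 121 and 251. Each of these 3 settings asks for 2 libraries instead of 3 and kept all 12 genes. With Prl at 5% or more, library 6 had a share of 14.2% and a median Prl of 21.5%. With Prl at 20% or more the shares were 2.61%, 2.48% and 7.71% and the medians 28.5%, 29.8% and 29.3%. In cells of 1000 UMIs or more the share was 3.05% in library 5 and 7.75% in library 6, the median Prl 24.0%, 34.0% and 24.8%, and the median Gh 0.601% in library 4 and 1.08% in library 6. Apart from what the settings themselves change (fewer cells or genes), the cause was not tested.

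Over 143 calls on named and list genes and the settings that could end a call, 1454 were kept, 262 were lost and none changed sign. The kept calls include all 143 in the setting without cells that Scrublet marked, which removed no lactotroph-like cell. All 143 were also kept without lactotroph-like cells with microglia UMIs and without those with hemoglobin UMIs. These settings left out few cells and could hardly end a call. Of the lost calls, 90 fell to the filter of 200 CPM, which takes genes out of testing and leaves their ratios as they were. Totals of all genes lost 56, with fewer genes tested as well. Leaving out a library, dropping the filter or adding 1 CPM cannot end a call and is not counted. Leaving out cells with microglia or hemoglobin UMIs, and taking the microglia-marker cells from the remaining class only, were added after seeing the data. With those of all classes the thinned Chgb shares were 1.22%, 0.658% and 7.32%. Counting intervals for the comparison between libraries need whole counts, so cell means and subtraction of free RNA were not run there. No paired analysis was possible because the columns carry no replicate number and the results come from no test. With about 513 to 654.5 UMIs outside the hormones in the median lactotroph-like cell and 56069 in all of library 5, levels near 1 UMI per library could not be compared.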
